A study of Mus musculus with 12 samples.

Results

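The regions described here are contacts between a captured promoter and a distal 2 kb bin on the same chromosome, where the bin lay in open chromatin in both populations of stem cells and carried no promoter or enhancer mark in either. They were chosen from the authors' annotation of the distal bins, in which the ATAC column (open chromatin) had to be 1 in fetal and in adult cells, and the columns for active and bivalent promoters and for active, primed and poised enhancers had to be 0 in both. All listed contacts were called in at least 1 population, and beyond that, calls and counts played no part in the choice. Of 88475 contacts within a chromosome, 13683 (15.5%, exact 95% interval 15.2 to 15.7) met the rule, and the whole table holds 89545 contacts. They are called open unmarked bins below, with 7511 contacts in the batch labelled first (batch 1) and 6172 in the batch labelled second (batch 2).

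The study compared the contacts of selected promoters in haematopoietic stem cells (HSCs) of the mouse fetus and adult by promoter Capture-C, in which cross-linked chromatin is cut with DpnII, religated and enriched for promoter fragments with oligonucleotide probes. Fetal HSCs came from fetal liver at embryonic day 14.5 and adult HSCs from bone marrow of mice aged 6 to 8 weeks. Both were of strain B6129SF1, with no allele or treatment named in the labels, and both were sorted as Lin-Sca1+cKit+CD135- cells. Each population gave 4 libraries, 2 in each of 2 batches, and the remaining libraries of the series, from a blood progenitor line, were not analysed here. That gate holds stem cells together with early progenitors, and CD135 is the product of Flt3, listed at 6.20 FPKM (fragments per kilobase of transcript, scaled to library size) in fetal and 3.81 in adult cells. Of the 12 HSC and progenitor markers checked, 10 belonged to captured promoters and all 10 reached 1 FPKM in both populations, with sums of 197 in fetal and 293 in adult cells. Macrophage markers (6 of 8 captured) summed to 23.7 in fetal and 2.08 in adult cells, erythroid markers (7 of 9) to 84.0 and 17.6, and lymphoid and granulocyte markers (5 of 11) to 75.2 and 5.75, while none of the 4 hepatocyte markers was captured. Their part in the results below was not tested.

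Open chromatin is DNA that an inserting enzyme can reach because nucleosomes have been moved aside. Promoters and enhancers are the best known kinds of open site and carry characteristic histone modifications. Other open sites lack these modifications. Sites bound by the insulator protein CTCF, where cohesin-driven loops tend to end, are a well-known example, and silencers or elements of low activity can also look this way. The annotation used here has no column for CTCF or cohesin.

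Each contact has a promoter end, whose fragment is set by the sites at which DpnII cuts, and promoter sequences are shown for 4 genes whose contacts are described below. Hoxa9 is 1 of several promoters that share a distal bin, and Tgoln1 is among the promoters with most open unmarked bins. The other 2 were extremes of their batch among promoters with at least 8 open unmarked bins. Adarb1 had the strongest lean to fetal calls there, and Det1 shared the strongest lean to adult calls with Tmem40_1. The sequences are the 250 bases before the start site, from RefSeq on GRCm38.p6, all on the minus strand and written 5′ to 3′, with the DpnII site GATC in capitals. GATC, which reads the same on both strands, was found in 41.9% of 32851 windows of that length in the RefSeq table.
Hoxa9 (chr6:52227371-52227620): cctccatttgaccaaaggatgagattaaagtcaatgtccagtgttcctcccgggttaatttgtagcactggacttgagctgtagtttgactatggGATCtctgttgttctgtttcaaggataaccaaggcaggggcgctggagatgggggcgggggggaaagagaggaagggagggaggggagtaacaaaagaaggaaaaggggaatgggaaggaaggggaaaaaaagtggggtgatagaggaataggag
Tgoln1 (chr6:72617001-72617250): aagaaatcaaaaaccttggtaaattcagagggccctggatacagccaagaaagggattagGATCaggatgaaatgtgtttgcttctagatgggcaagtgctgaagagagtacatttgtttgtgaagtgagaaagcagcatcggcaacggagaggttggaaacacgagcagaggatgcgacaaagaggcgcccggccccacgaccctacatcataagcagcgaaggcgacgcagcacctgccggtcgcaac
Adarb1 (chr10:77418274-77418523): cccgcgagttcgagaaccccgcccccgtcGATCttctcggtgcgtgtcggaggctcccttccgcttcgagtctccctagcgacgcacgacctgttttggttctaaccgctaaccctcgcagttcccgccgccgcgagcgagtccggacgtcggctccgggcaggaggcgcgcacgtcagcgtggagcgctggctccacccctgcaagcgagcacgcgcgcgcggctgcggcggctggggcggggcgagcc
Det1 (chr7:78847212-78847461): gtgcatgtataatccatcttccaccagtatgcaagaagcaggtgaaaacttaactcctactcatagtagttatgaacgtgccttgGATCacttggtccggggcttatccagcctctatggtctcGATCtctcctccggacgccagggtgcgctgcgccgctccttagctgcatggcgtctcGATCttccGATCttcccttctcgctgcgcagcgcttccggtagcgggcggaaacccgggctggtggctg
Hoxa9, Tgoln1 and Adarb1 each had 1 GATC in this window and Det1 had 4. All other coordinates below are those of the deposited table, on mm9 per the submitters' processing notes. No sequence of a distal bin is printed, since no genome of that build was used here. For the same reason the windows above are not placed relative to the captured fragments. A window need not lie inside the fragment whose contacts are described, and Hoxa9 had separate fragments, such as Hoxa9 and Hoxa9_2.

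Open unmarked bins were spread over most captured promoters. In batch 1, 1587 of 1939 promoters had at least 1, for 1348 genes, and in batch 2, 1419 of 1814, for 1404 genes. The median promoter with any had 3, and the most were 27 and 23. A lone open unmarked bin was listed for 334 and 347 promoters, and 10 or more for 197 and 138. Among unmarked distal bins of every openness they made up 24.1% of contacts in batch 1 and 26.0% in batch 2, and among all bins open in both populations 34.0% and 32.6%. The contacts rested on 6150 distinct bins in batch 1 and 5381 in batch 2, of which 1150 occurred in both.

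The first question was whether these bins were contacted in both populations or in 1. A contact counts as called where the authors' score, the −log10 of a p-value, is above 0. The smallest score was 1.3 in batch 1 and 2.0 in batch 2, so the batches differ in stringency and are given apart. In batch 1, 2223 of the 7511 contacts (29.6%, interval 28.6 to 30.6) were called in both populations, against 25.3% of all contacts within a chromosome. In batch 2, 2546 of 6172 (41.3%, 40.0 to 42.5) were, against 36.7%. Unmarked bins closed in both populations stood at 16.8% and 27.4%, and bins marked as active enhancers in both at 30.8% and 43.5%. Unmarked bins open in fetal cells alone stood at 22.7% and 30.2%, and those open in adult cells alone at 20.3% and 29.6%. In both batches the open unmarked bins thus lay near the active enhancers and above each of the other unmarked kinds by more than the counting intervals. Every value is pooled over the libraries of a population within a batch, so no library gives a replicate error, and no difference in this text could be tested against the spread between libraries. These intervals reflect counting error alone and understate the error wherever adjacent bins were called together.

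**Figure D1:**
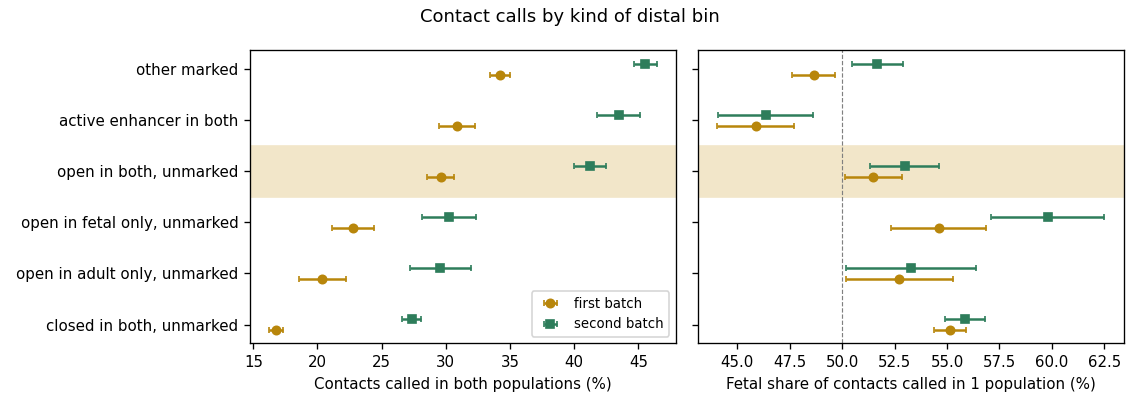
Share of contacts called in both populations (left, percent) and fetal share of the contacts called in 1 population (right, percent) for 6 kinds of distal bin, with exact 95% binomial intervals as bars, circles for batch 1 and squares for batch 2. Open unmarked bins (shaded) sit at 29.6% and 41.3% called in both, next to active enhancers and to the right of closed unmarked bins at 16.8% and 27.4%.

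Contacts called in 1 population were divided almost evenly. In batch 1, 2723 open unmarked bins (36.3%, against 39% of all contacts) were called in fetal cells only and 2565 (34.1%, against 35.7%) in adult cells only. In batch 2 these were 1921 (31.1%, against 34%) and 1705 (27.6%, against 29.3%). The fetal share of calls in 1 population was 51.5% (50.1 to 52.8) and 53.0% (51.3 to 54.6), close to 52.1% and 53.7% over all contacts. It was 55.1% and 55.9% at closed unmarked bins and 45.9% and 46.4% at active enhancers. Of all fetal calls at open unmarked bins, 44.9% in batch 1 and 57.0% in batch 2 were also adult calls, and of all adult calls 46.4% and 59.9% were also fetal. Over all contacts within a chromosome these shares were 39.4% and 52.0%, and 41.4% and 55.6%. With the score limit raised by 1, the fetal share in batch 1 fell below an even split, to 48.0%.

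Distance was measured between the midpoints of the captured fragment and of the bin. Open unmarked bins lay at a median of 172 kb (interval 170 to 175) in batch 1, with the middle of the distribution between 108 and 288 kb, and at 99.6 kb (97.3 to 102) in batch 2, between 62.4 and 162 kb. All contacts had medians of 172 and 92.1 kb, closed unmarked bins 180 and 86.8 kb, and active enhancers 158 and 87.6 kb. Fetal-only contacts reached farther than adult-only ones, with medians of 209 against 160 kb in batch 1 and 131 against 68.2 kb in batch 2. Contacts called in both lay at 149 and 94.4 kb. In batch 2 the gap rested largely on contacts closer than 60 kb. Without them it came to 15.0 kb (4.58 to 28.4, taken from opposite ends of the intervals of both medians). Beyond 1 Mb lay 91 open unmarked bins in batch 1 and 10 in batch 2.

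**Figure D2:**
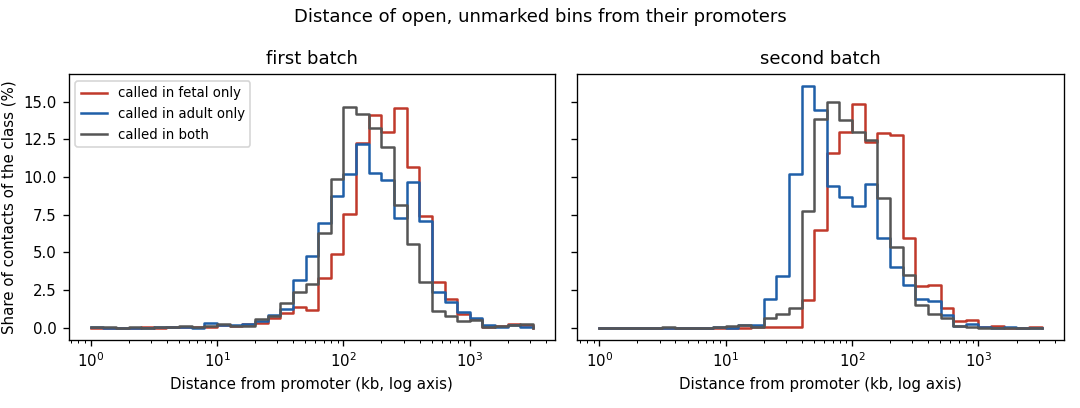
Distance of open unmarked bins from their promoters (kb, log axis) as the share of contacts of each call class (percent), in batch 1 (left) and batch 2 (right). The fetal-only curve (red) is shifted to the right of the adult-only curve (blue), with medians of 209 against 160 kb and 131 against 68.2 kb.

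Since calls depended on distance, the classes were also compared at like distances. Between 60 and 150 kb, 37.1% (35.2 to 39.0) of open unmarked bins in batch 1 were called in both populations, against 21.9% (20.9 to 22.9) of closed unmarked bins, 37.9% (35.4 to 40.4) of active enhancers and 31.5% of all contacts. Batch 2 gave 46.7% (44.9 to 48.6), 29.7% (28.7 to 30.8), 50.1% (47.7 to 52.6) and 40.8% in the same order. Between 150 and 300 kb the values were 29.1% at open unmarked and 15.8% at closed bins in batch 1, and 35.1% and 22.8% in batch 2, with 35.0% at the enhancers of batch 2. Open unmarked bins thus stood above closed ones in these 2 distance classes. The order was the other way under 20 kb in batch 1, at 30.1% of 73 open unmarked against 31.6% of 136 closed bins, and beyond 1 Mb in batch 2, at 20% of 10 against 59.3% of 27. The intervals of open unmarked bins and enhancers overlapped in both batches between 60 and 150 kb and in batch 2 between 150 and 300 kb. In batch 1 between 150 and 300 kb they just missed each other, at 27.4 to 30.9 for open unmarked bins against 22.6 to 27.4 for enhancers.

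The fetal share of calls in 1 population also moved with distance, and all contacts moved alike. At 20 to 60 kb it was 31.6% at open unmarked bins in batch 1 and 14.3% in batch 2, at 60 to 150 kb 41.6% and 61.5%, and at 150 to 300 kb 61.2% and 72.0%. All contacts gave 30.5% and 15.6%, then 43.6% and 64.3%, then 61.5% and 72.5%. Open unmarked bins lay close to the background of their batch in each of these classes, and the rise in fetal share from the nearest to the farthest of the 3 classes was shared with contacts as a whole.

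**Figure D3:**
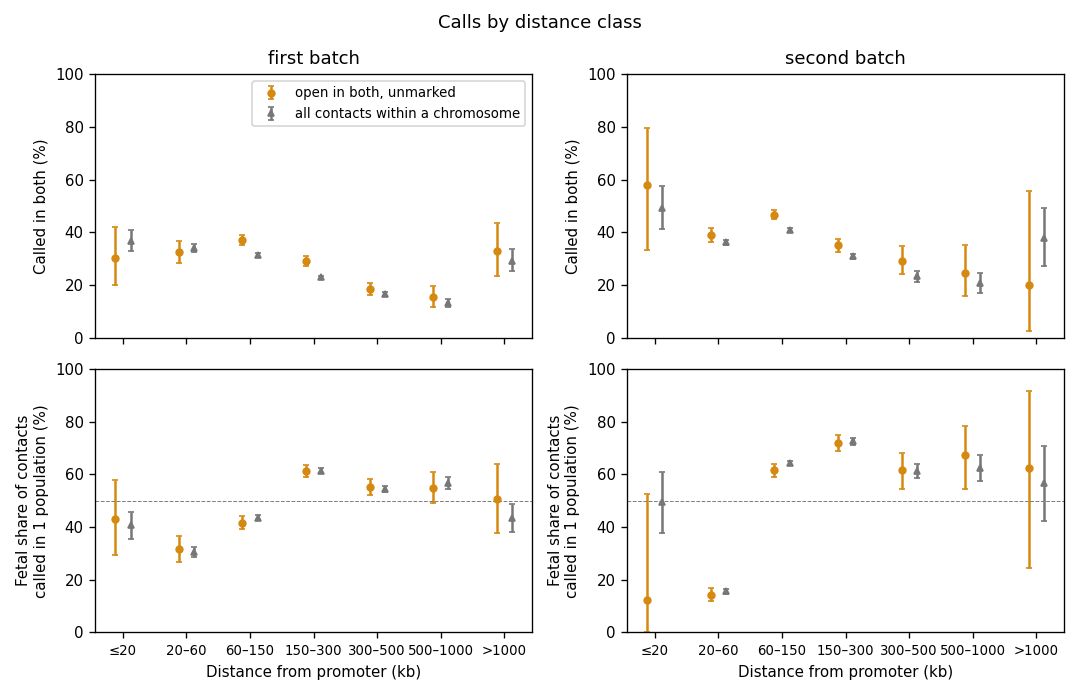
Share called in both populations (top, percent) and fetal share of calls in 1 population (bottom, percent) by distance class (kb), for open unmarked bins (circles) and all contacts within a chromosome (triangles), with exact 95% intervals. Between 60 and 150 kb the circles stand above the triangles in the upper panels (37.1% against 31.5%, and 46.7% against 40.8%), and in the lower panels both rise together from 20 to 300 kb.

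Neither side of the promoter was favoured over the whole set. Bins at lower coordinates than the promoter made up 49.4% (48.2 to 50.5) in batch 1 and 50.2% (48.9 to 51.4) in batch 2. Single promoters were often lopsided. Among 642 promoters with at least 5 open unmarked bins in batch 1, 65 had all of them at lower and 84 all at higher coordinates, together 23.2%. In batch 2, 56 and 65 of 535 did, together 22.6%, and the larger side held a median of 80% of a promoter's bins in either batch. Adjacent bins that are called together add to this, so the count is a description of the list. It was not set against all contacts of the same promoters.

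The read counts behind the calls were small. Open unmarked contacts had medians of 9 fetal and 9 adult counts in batch 1, with 6 to 14 and 6 to 13 as the middle ranges, and of 27 and 24 in batch 2. They held 198614 fetal and 166521 adult counts in batch 1, 22.3% and 21.9% of all counts within a chromosome, and 345493 and 324784 in batch 2, 17.2% and 17.9%. A few contacts weighed heavily there, as 17 and 9 of them had at least 1000 counts. Without all contacts of that size the fetal share was 14.9% in batch 1 and 15.6% in batch 2, close to their share of contacts. Where called, the scores had medians of 2.10 fetal and 2.22 adult in batch 1, and 3.43 and 3.53 in batch 2. A score of at least 10 in both populations was listed for 89 contacts (1.18%, against 0.994% of all) in batch 1 and for 241 (3.90%, against 2.96%) in batch 2.

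The ratio of fetal to adult counts was taken as log2 with 1 added to each count, centred on the median of all contacts of the batch, which subtracted 0.14 and 0.23. Its median over open unmarked bins was −0.02 (−0.06 to 0.01) in batch 1 and −0.04 (−0.06 to −0.02) in batch 2, so the bins as a set held about as many counts in either population as other contacts did. Fetal counts were at least 2-fold higher at 1015 contacts (13.5%, against 15.5% of all) and adult counts at 1122 (14.9%, against 16.1%) in batch 1. In batch 2 these were 396 (6.42%, against 7.87%) and 493 (7.99%, against 7.3%). The direction of this split hung on the centring, since uncentred ratios gave 1401 fetal against 998 adult in batch 1 and 710 against 296 in batch 2. The number hung on the pseudocount, since adding 5 to each count left 262 fetal and 411 adult in batch 1 and 196 fetal and 306 adult in batch 2. Fetal-only contacts had a median ratio of 0.81 and 0.58 in the respective batches, adult-only contacts −0.88 and −0.69, and contacts called in both −0.09 and −0.09. The call classes read the same counts, so these medians describe how large the count difference behind a call was. Most calls in 1 population rested on a difference of less than 2-fold, namely 63.6% of fetal-only and 58.2% of adult-only contacts in batch 1 and 79.7% and 73.5% in batch 2. Other bins did likewise, with 60.7% and 56.2% over all contacts in batch 1 and 77.2% and 76.6% in batch 2. In 38 fetal-only and 36 adult-only contacts of batch 1, and in 107 and 85 of batch 2, the centred ratio pointed away from the population with the call. These were 1.40% and 1.40%, and 5.57% and 4.99%, of the respective classes, against 1.3% and 1.29%, and 4.61% and 5.72%, over all contacts.

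**Figure D4:**
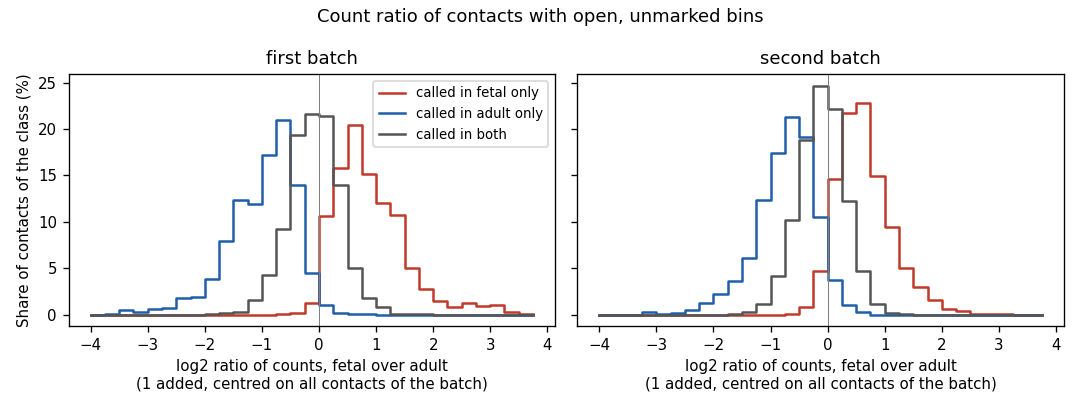
Fetal over adult count ratio (log2) at open unmarked bins (1 added to each count, centred on all contacts of the batch) as the share of contacts of each call class (percent). Fetal-only and adult-only contacts peak on opposite sides of 0, with medians of 0.81 and −0.88 in batch 1 and 0.58 and −0.69 in batch 2, and contacts called in both peak near 0.

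Many open unmarked bins stood beside others. Another listed open unmarked bin lay within 5 kb of 55.8% of them in batch 1 and 61.0% in batch 2, against 17.6% and 22.1% of closed unmarked bins and 22.3% and 22.8% of active enhancers. A listed bin with a promoter or enhancer mark lay within 5 kb of 30.5% (29.4 to 31.5) and 31.5% (30.4 to 32.7), about as for closed unmarked bins (28.2% and 34.9%) and well below active enhancers (77.6% and 84.6%). The mark columns describe 2 kb bins, so the edge of a marked element can fall in the next bin. Open unmarked bins with such a neighbour were called in both populations in 35.3% (33.3 to 37.3) of cases in batch 1 and 49.3% (47.0 to 51.5) in batch 2, those without in 27.1% (25.9 to 28.3) and 37.6% (36.1 to 39.0). The bins without a marked neighbour still stood above closed unmarked bins, at 16.8% and 27.4%. A captured promoter lay inside 5.53% and 5.75% of the open unmarked bins although they carried no promoter mark, against 0.58% and 0.42% of closed unmarked bins and 5.66% and 7.07% of bins of all contacts.

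Bins of the same promoter up to 5 kb apart were merged into sites. Batch 1 then held 5753 sites and batch 2 held 4381, of which 4353 and 2979 were of a lone bin. The longest spanned 8 bins at St7_1, an alternative promoter of St7, and 9 bins at Rab36, a small GTPase of membrane traffic. Sites were called in both populations in 33.7% (32.4 to 34.9) and 45.6% (44.1 to 47.1) of cases. Sites of several bins reached 80.8% and 82.0% against 18.5% and 28.5% for lone bins, and more bins give more chances of a call in either population.

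The bins were then set against the positions of the other captured promoters. At 71.5% of the contacts in batch 1 and 56.4% in batch 2, a captured promoter other than the target was nearer to the bin, and for 53.9% and 35.9% a captured promoter lay in between. All contacts gave 72.2% and 58.0%, and 54.3% and 37.6%. In batch 1, 17.1% of the distinct bins were listed for more than 1 promoter and in batch 2, 12.1%, against 10.0% and 7.40% of closed unmarked bins, 19.6% and 13.2% of active enhancers, and 24.2% and 20.7% of bins with other marks. Alternative promoters of a gene and promoters of a gene cluster lie beside each other, so these sharings are not independent.

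The most widely shared bin, chr6:51126001-51128001, was listed for 9 promoters of batch 1. They included 7 promoters of the Hoxa cluster, genes for homeobox regulators of body axis and blood stem cells, at distances of 1036 to 1064 kb. At Hoxa9 the bin had 18 fetal and 16 adult counts and was called in both populations, as at Hoxa10, Hoxa10_1 and Hoxa3_1. At Hoxa7 (13 fetal, 5 adult counts) and Hoxa9_2 (12 and 7) it was called in fetal cells only, and at Hoxa7_1 (3 and 13) in adult cells only, so promoters a few kb apart differed in class on counts this small. Cbx3_1, a promoter of the heterochromatin protein HP1γ gene, touched it from 294 kb with 5 fetal and 1 adult counts. Snx10, for a sorting nexin, touched it from 347 kb with 7 and 2. A bin nearer the cluster, chr6:51824001-51826001, was listed for 7 promoters, among them Hoxa3_1, Hoxa7, Hoxa7_1 and Hoxa7_2 at 338 to 347 kb.

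On chromosome 10 the bin chr10:79862001-79864001, which itself held a captured promoter fragment, was listed for 8 promoters of batch 1. Tcf3, the gene of the E2A transcription factors of early blood cells, contacted it from 21.8 kb with 75 fetal and 49 adult counts, called in both. Mbd3, a subunit of the NuRD repressor complex, lay 4.57 kb away and had 452 and 381 counts, called in fetal cells only at a score of 1.79. Dazap1, for an RNA-binding protein, had 25 and 30 counts from 139 kb and was called in adult cells only at a score of 12.95. Stk11_1, a promoter of the LKB1 kinase gene, had 22 and 13 from 284 kb and was called in both. The genes around this bin were well expressed, from 20.9 to 83.7 FPKM in fetal cells over its 8 promoters.

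In batch 2 the most shared bin was chr6:124812001-124814001, with 6 promoters at 33.0 to 151 kb. Ptms, for parathymosin, was called in both populations there with 63 fetal and 55 adult counts. Tpi1, for triosephosphate isomerase, was called in adult cells only although it had more fetal counts (64 against 33), as did Cdca3, a cell division gene (92 against 64). Lag3, an immune checkpoint receptor, had 93 and 105 counts and an adult score of 14.33. The bin chr7:133848001-133850001 was listed for 5 promoters, of which Ypel3 (71 fetal and 45 adult counts, from 71.7 kb) and Gdpd3 (43 and 32) were called in both. With 4 promoters each followed chr1:9738001-9740001, with both captured promoters of the kinase gene Sgk3, and chr10:79578001-79580001. The latter was also listed for 6 promoters of batch 1, among them Cirbp, Stk11 and Ptbp1, so that promoters of both batches shared it. It too held a captured promoter fragment, so part of the sharing at these 2 bins of chromosome 10 is contact between captured promoters.

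The 10 promoters with most open unmarked bins, 5 per batch, held them on both sides and, except for Asf1b, in every call class. Tmem68, for a transmembrane protein, led batch 1 with 27 among its 69 contacts (39.1%), 10 fetal only, 8 adult only and 9 in both, at 44.9 to 495 kb. Their counts ran from 3 to 22 in fetal and from 1 to 20 in adult cells, with medians of 8 and 8. Zfp617, a zinc finger gene, followed with 24, and 1600027N09Rik, Cep63, for a centrosome protein, and Spata5_1 with 23 each. At Cep63 20 of the 23 lay at higher coordinates and adult calls outnumbered fetal ones, 21 against 15. At Spata5_1 fetal calls led, 18 against 10, and the bins reached out to 3434 kb.

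In batch 2 Chpt1, which completes phosphatidylcholine, and Tgoln1, for a protein of the trans-Golgi network, had 23 open unmarked bins each. At Chpt1 12 were called in both populations, at fetal counts of 15 to 29 (median 21) and adult counts of 5 to 33 (median 22). At Tgoln1 7 were called in both, 11 in fetal cells only and 5 in adult cells only. Asf1b, a histone chaperone of DNA replication, had 22, of which 20 lay at lower coordinates, 17 were called in both and none in adult cells only. Its counts were 24 to 115 fetal (median 39) and 12 to 87 adult (median 35), and its expression 9.29 FPKM in fetal and 4.34 in adult cells. Cdca8, a subunit of the chromosomal passenger complex of mitosis, had 20 (13 in both, 5 fetal only, 2 adult only) and Inpp5a, an inositol phosphate phosphatase, 19.

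Among promoters with at least 8 open unmarked bins, 145 of 305 in batch 1 had more fetal than adult calls, 121 had more adult calls and 39 had equal numbers. In batch 2 these were 121, 86 and 32 of 239. All contacts within a chromosome leaned the same way, with fetal calls at 64.3% and adult calls at 61% in batch 1. In batch 2 these shares were 70.7% and 66%. No such split was made over all contacts of the same promoters, so a lean beyond this background was not tested. The extremes among these promoters were chosen by their calls, so the values that follow are a description. The calls given for each are those at open unmarked bins alone. Adarb1, which encodes an RNA-editing adenosine deaminase, had 8 open unmarked bins in batch 2, all called in fetal cells and 1 in adult cells. Fetal counts ran from 17 to 31 and adult counts from 6 to 24, and in 7 of the 8 bins the fetal count was the higher. The exception was the bin called in both, chr10:76972001-76974001, with 21 fetal and 24 adult counts at 92.7 kb. Its neighbour chr10:76970001-76972001 had 22 and 6 and was fetal only, so the call changed between adjoining bins. Haus3, a subunit of the augmin complex of the spindle, had 8 fetal and 2 adult calls at 9 bins. Ptpla, an enzyme of very-long-chain fatty acid synthesis, had 9 and 3, all at higher coordinates. At Ptpla the counts did not lean the way of the calls, with 226 fetal and 242 adult counts over its 9 bins. In batch 1 Tmem128_1 had 9 fetal and 2 adult calls at 10 bins, Pars2, for the mitochondrial prolyl-tRNA synthetase, 8 and 2 at 9 bins, and Mfsd11, of a transporter family, 7 and 2 at 8 bins. Adult counts at Mfsd11 were 0 to 7 and fetal counts 4 to 10.

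Det1, whose product is part of a ubiquitin ligase, had 8 open unmarked bins in batch 1, all called in adult cells and 1 in fetal cells. The adult count was the higher in each, at 9 to 28 (median 21.5) against 3 to 23 fetal counts (median 13.5). All 8 had a marked listed bin within 5 kb. The bin chr7:85936001-85938001, 51.3 kb away, had 13 fetal and 28 adult counts. Tmem40_1 also had 1 fetal and 8 adult calls, over 9 bins, with 326 fetal and 332 adult counts in all, most of them in a bin 3.93 kb away with 245 and 222. H28 had 2 and 8 calls, and adult counts were higher at 8 of its 9 bins. In batch 2 Ube2c, the ubiquitin-conjugating enzyme of the anaphase-promoting complex, was called at all 12 of its bins in adult cells and at 5 in fetal cells. Its expression went the other way, 45.6 FPKM in fetal and 12.7 in adult cells. Its summed fetal counts (644) were above its adult counts (571) before centring, but the median centred log2 ratio of its bins was −0.024. Ifrd2 had 9 adult and 4 fetal calls, and Fam107b 6 and 2.

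**Figure D5:**
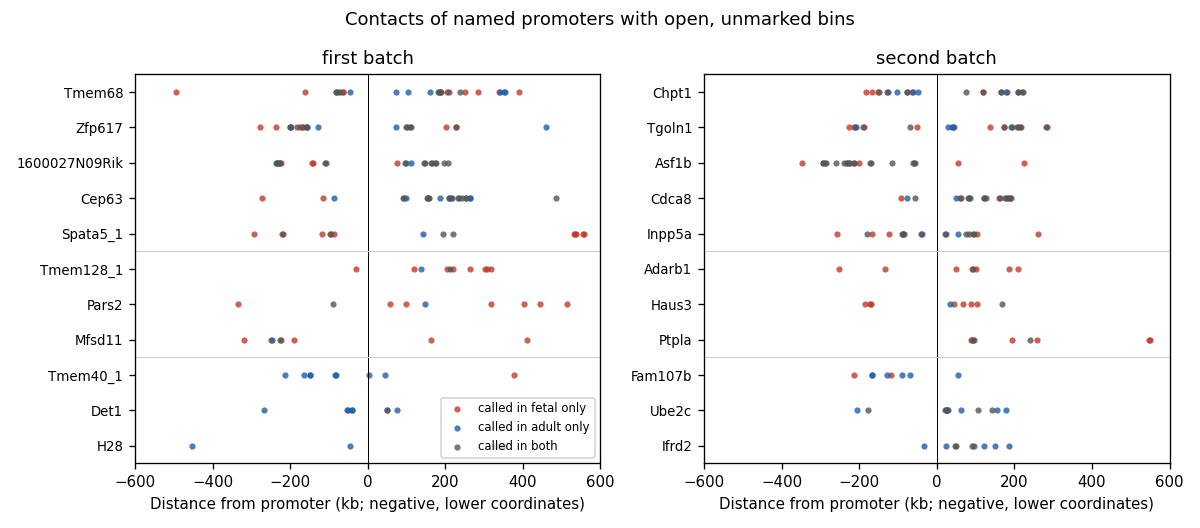
Position of each open unmarked bin relative to its promoter (kb, negative at lower coordinates) for the named promoters of batch 1 (left) and batch 2 (right), coloured by call class. From the top, the groups are the 5 promoters with most such bins, the 3 with the largest fetal and the 3 with the largest adult excess of calls, and 8 bins of Spata5_1 and 2 of Zfp617 beyond 600 kb are not drawn. Adarb1 shows 7 fetal-only bins and Det1 7 adult-only bins.

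The single contacts with the highest scores in both populations had infinite scores, where the p-value fell below what the authors' software could hold. Among these, the contacts with most counts in batch 1 belonged to Tceal7 (7013 fetal and 4877 adult counts at 74.3 kb), Ifi204, an interferon-inducible DNA sensor (7014 and 3793 at 146 kb), and D14Ertd668e (5427 and 4611 at 32.6 kb). In batch 2 they were those of C1ra, a complement protease (21805 and 22337 at 57.9 kb), Naip5, a receptor for flagellin (8839 and 10288 at 70.7 kb), and Tdg, a DNA glycosylase (645 and 622 at 40318 kb). Several of these genes belong to families with near-identical copies nearby, the treatment of reads that fit more than 1 place is not given in the sources used here, and these counts are therefore uncertain. In all, 10 contacts of batch 1 and 3 of batch 2 were infinite in both populations.

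Among contacts with at least 20 counts, the highest fetal ratios of batch 1 were at Guca1a, Txn2 and Hoxa10_1. Txn2, for the mitochondrial thioredoxin, had 23 fetal and 4 adult counts at chr15:77592001-77594001, 165 kb away, a log2 ratio of 2.12 and a fetal score of 11.11. Guca1a, a guanylate cyclase activator, had 18 and 2 counts (2.52), and Hoxa10_1 18 and 3 (2.10) at 67.8 kb with 8 captured promoters in between. In batch 2 Mipep, a mitochondrial peptidase, had 20 and 1 (3.17). Ern1, for the endoplasmic reticulum stress sensor IRE1, had 40 and 4 (2.81) and a fetal score of 12.06 at chr11:106138001-106140001. Mpeg1, for the macrophage pore protein perforin-2, had 20 and 2 (2.58), and was listed at 2.73 FPKM in fetal and 0.0611 in adult cells, where the macrophage markers summed to 23.7 and 2.08.

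The lowest ratios of batch 1 were at Itsn1_2, of the endocytic scaffold intersectin (5 fetal and 30 adult counts, −2.51), Cux1, a homeobox gene (3 and 18, −2.39), and Slc7a4, of an amino acid transporter family (3 and 17, −2.31). In batch 2 they were at Kctd1 (3 and 29, −3.13), Npdc1 (3 and 27, −3.03) and Oxr1_2, of an oxidation resistance gene (2 and 20, −3.03). All 6 genes were more highly expressed in adult than in fetal cells, as with Npdc1 at 6.42 against 0.0781 FPKM. The 3 of batch 1 carry the authors' mark of differential expression, which in batch 2 every captured promoter carries. Of the 6 genes with the highest fetal ratios, Txn2, Mipep and Mpeg1 were higher in fetal and Guca1a, Hoxa10_1 and Ern1 higher in adult cells. The contacts were picked at the ends of the list, and each rests on few reads. The bins contacted by Itsn1_2, Cux1 and Ern1 held another captured promoter, and the other bins at these ends held none.

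The fetal share was also set against expression over all target genes. In batch 1, promoters of genes the authors marked as differential and higher in fetal cells had a fetal share of 48.8% (45.4 to 52.2), and those higher in adult cells 54.0% (50.9 to 57.1). In batch 2 the values were 54.5% (52.1 to 56.8) and 51.6% (49.3 to 53.9). The order turned between the batches, but the intervals overlapped within each, and all contacts of the same promoters turned likewise, with 51.7% and 52.3% in batch 1 and 54.6% and 52.8% in batch 2. Genes under 1 FPKM in both populations, present in batch 1, had 58.0% (53.1 to 62.9), as did all contacts of those promoters with 58.2%. Open unmarked bins made up 16.0% of the contacts of genes higher in adult cells and 14.4% of those of genes higher in fetal cells in batch 1, and 16.4% and 15.2% in batch 2.

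Of 25 HSC regulators, 21 were captured, all in batch 1, and 18 had an open unmarked bin. These made up 83 of 703 contacts (11.8%, 9.51 to 14.4), below the 15.2% of the batch, of which 26 were fetal only, 36 adult only and 21 (25.3%, as over all contacts) called in both. The fetal share of calls in 1 population, 41.9%, had an interval of 29.5 to 55.2, which held the 52.1% over all contacts. Their median log2 count ratio was −0.14. Cebpa, a myeloid regulator, had 5 among its 7 contacts, 3 in adult cells only and 2 in both, with 9 to 15 fetal and 11 to 22 adult counts, and none within 5 kb of a marked bin. Gfi1, a repressor of stem cell proliferation, had 2 bins and Gfi1_1 3, and 4 of these 5 were adult only although the gene stood at 11.0 FPKM in fetal and 1.54 in adult cells. Myc, the growth regulator, had 6, all at higher coordinates, from 140 to 1752 kb. The bin at chr15:62052001-62054001 had 9 fetal and 1 adult counts there. Runx1, a master regulator of blood formation, had 4 of 66 contacts, all at higher coordinates, and Gata2 3 of 46.

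The 9 genes of the fetal programme list were all captured, 4 in batch 1 and 5 in batch 2. In batch 1 they had 45 open unmarked bins among 255 contacts (17.6%, 13.2 to 22.9, against 15.2% over all contacts). In batch 2 they had 2 among 32 contacts (6.25%, 0.766 to 20.8, against 15.8%), both intervals holding the share over all contacts. Of the 45, 9 were fetal only, 16 adult only and 20 in both (44.4%, against 25.3% over all contacts). The interval of their fetal share, 18.0 to 57.5, held the 52.1% over all contacts. Most of the 45 lay at the imprinted pair Igf2 and H19, whose promoters shared bins, so some bins count more than once. H19, a non-coding RNA of fetal growth control, had 10 at H19 and 13 at H19_1, each at lower coordinates. Its FPKM at H19_1 was 209 in fetal and 2.15 in adult cells. Even so, H19_1 had 11 fetal and 11 adult calls, and 9 of its 13 bins were called in both. At the adjoining fragment H19 there were 4 fetal and 9 adult calls. In the bin chr7:149628001-149630001, 134 kb from H19, the counts were 22 fetal and 14 adult, and from H19_1 29 and 14. In chr7:149622001-149624001 they were 5 and 13 from H19 but 16 and 18 from H19_1, so neighbouring fragments gave different classes for the same bin. Igf2_2, of the fetal growth factor gene, had 12 bins, 11 at lower coordinates and 7 called in both. Hmga2, a chromatin protein of fetal HSCs, had 1 bin, adult only, with 3 and 7 counts. The adult quiescence list (6 of 10 genes captured, all in batch 1) had 24 among 237 contacts (10.1%, 6.60 to 14.7, below the 15.2% of the batch). Of these 24, 9 were called in both (37.5%, against 25.3% over all contacts), 6 in fetal cells only and 9 in adult cells only. The interval of the list's fetal share, 16.3 to 67.7, held the 52.1% over all contacts. Cdkn1c, a cell cycle inhibitor, had 4, all at lower coordinates and none fetal only. Txnip, which holds back glucose uptake, had 3, 2 of them fetal only, against 36.7 FPKM in fetal and 88.7 in adult cells.

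The cell cycle and replication list (32 genes) had 6 genes captured in batch 1 and 12 in batch 2. Open unmarked bins were 43 of 248 contacts (17.3%, 12.8 to 22.6, against 15.2% over all contacts) in batch 1. In batch 2 they were 38 of 233 (16.3%, 11.8 to 21.7, against 15.8%). In batch 1, 11 were fetal only, 11 adult only and 21 in both (48.8%), where all contacts gave 39%, 35.7% and 25.3%. In batch 2, 18 were fetal only, 4 adult only and 16 in both (42.1%, against 36.7% over all contacts). The fetal share was 81.8% (59.7 to 94.8) against 53.7% over all contacts, a value not matched for distance. Over all contacts of batch 2 it was 15.6% at 20 to 60 kb, 64.3% at 60 to 150 kb and 72.5% at 150 to 300 kb. The 38 bins belonged to 9 promoters and some adjoined, so the interval understates the error. Ccne1, the cyclin of S phase entry, had 4 in batch 2, all fetal only and all between 57.4 and 93.4 kb at higher coordinates. Its counts were 25 fetal and 11 adult at the nearest bin, 34 and 9 at the next, then 20 and 14, and 24 and 15. Fetal counts were higher at each, and its expression was 14.7 FPKM in fetal and 2.74 in adult cells. Mcm2, a subunit of the replicative helicase, had 4 fetal only and 1 adult only. Rrm1, of ribonucleotide reductase, had 3 fetal only and 3 in both. Rrm2, the other subunit, had 10, 6 of them in both. In batch 1 the D-type cyclin genes Ccnd1 and Ccnd2 had 13 and 9, all at higher coordinates, and Cdc45, a helicase cofactor, had 8, all at lower coordinates. At Ccnd1 the bin with most counts, chr7:152428001-152430001 at 304 kb, had 30 fetal and 58 adult counts and scores of 12.28 and 39.26.

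The interferon list (28 genes) had 6 genes captured in batch 1 and 9 in batch 2. Open unmarked bins were 36 of 160 contacts (22.5%, 16.3 to 29.8, against 15.2% over all contacts) in batch 1. Of these 36, 11 were fetal only, 14 adult only and 11 in both (30.6%, against 25.3% over all contacts). In batch 2 open unmarked bins were 22 of 150 (14.7%, 9.43 to 21.4, against 15.8%). Of these 22, 6 were fetal only, 5 adult only and 11 in both (50%, against 36.7%). The intervals of the fetal shares, 24.4 to 65.1 and 23.4 to 83.3, held the shares over all contacts. Ifitm3, an antiviral membrane protein, had 4, all adult only, with counts of 6 fetal and 10 adult at the farthest bin, then 6 and 15, 16 and 21, and 13 and 27 at the nearest. The nearest bin held another captured promoter. Adult counts were higher in each of the 4, and Ifitm3 expression was 47.8 FPKM in fetal and 105 in adult cells. Its neighbour Ifitm1 had 3, 2 fetal only and 1 in both, and Ifitm1_1, the adjoining fragment, 3, 2 adult only and 1 in both. Ifit2, of the family that binds viral RNA, had 8 among 16 contacts, and Gbp3, a guanylate-binding protein, 3, all in both. Genes of chromosome architecture (14 genes) had 3 captured in batch 1, with 10 among 110 contacts (9.09%, 4.45 to 16.1, against 15.2% over all contacts). In batch 2 they had 1 captured, with 0 among 3. Of these 10 bins, 5 were at Pds5a, a regulator of cohesin, with 4 in both.

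A check across the batches was possible for 19 captured fragments used in both. They had 58 open unmarked bins in batch 1 and 55 in batch 2, and 27 of these were the same bins, 46.6% of the former and 49.1% of the latter. Over all contacts of these fragments 43.2% and 49.2% recurred, for closed unmarked bins 34.8% and 41.7%, and for active enhancers 60.7% and 56.7%. Of the 27, 17 were in the same call class, 15 of them called in both populations each time, and 3 moved from 1 population to the opposite. No such split was made for other kinds of bin, so it describes these 27 alone. At Ndufaf2, an assembly factor of respiratory complex I, 3 bins between 170 and 182 kb recurred, and the middle one, which starts at chr13:109120001, had 19 fetal and 23 adult counts in batch 1 and 34 and 62 in batch 2. At Pdcd10, of the cerebral cavernous malformation complex, 5 recurred. The bin 162 kb away had more adult counts in both batches (8 against 20, and 22 against 43). The bin 304 kb away had 4 fetal and 8 adult counts in batch 1 and was adult only, but 25 and 13 in batch 2 and was fetal only. At Brd8, a subunit of a histone acetyltransferase complex, 4 recurred and were called in both populations each time, and at Hspd1_1, of the mitochondrial chaperonin gene, 2 did. At Lsm7, of the RNA-splicing machinery, 1 recurred as fetal only, with 14 against 11 counts and then 36 against 12.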

How the data were processed

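Promoter Capture-C contacts of fetal and adult HSCs were read from the authors' table. The table deposited by the authors gives each contact a read count for either population, a score (the −log10 of a p-value, 0 where not called), FPKM values per promoter, and 0 or 1 marks of promoter, enhancer and open-chromatin states per distal bin, per the file headers. How the counts pool the 2 libraries of a batch, and how FPKM and marks were made, is not given in the sources used here. Trim Galore 0.41, Bowtie2 2.2.2 and mm9 are named in the submitters' processing notes, and the caller LiMACC in the labels. All columns were assigned, leaving 0 unassigned. Rows were selected by the marks. Shares carry exact Clopper-Pearson 95% intervals and medians exact order-statistic intervals. Both cover counting error only, and PCR reads are not independent molecules. The computations (Python 3.11.15, pandas 2.3.3, numpy 2.4.6, scipy 1.17.1, matplotlib 3.10.9) were tested on simulated data.

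Counts within a chromosome came to 892529 fetal and 759999 adult in batch 1, and to 2014162 and 1813689 in batch 2. They cover listed contacts only and are not library depths. No test was run, as the values are pooled and neither contacts nor promoters are replicates. Named per batch are the 5 promoters with most open unmarked bins, the 3 with the largest and the 3 with the smallest log2 ratio of fetal to adult calls (1 added to each) among those with at least 8 such bins, the 3 contacts with the highest lower score, the 3 with the highest and the 3 with the lowest count ratio among those with at least 20 counts, the 3 most shared bins, and promoters of the gene lists. Not every list promoter is described. Members and lists were chosen with earlier results of these data known. Suffixes such as _1 number alternative promoters, and fragments shared by the batches bear their batch 1 names. Of 2752 target genes, 2731 matched the RefSeq gene names, 249 of them through a synonym. Alternatives comprised a stricter score, distance limits, merged sites, other neighbour limits, other scalings and pseudocounts.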

Additional observations from a re-analysis of the deposited data

Results flagged for a closer look

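The description above covers contacts within a chromosome, yet contacts between chromosomes also touched open unmarked bins. Of 1070 contacts between chromosomes, 200 had a bin open in both populations and without marks, at 104 promoters. They are given here as signal outside the main measurement, with no control sample for comparison. Batch 1 held 154 of 654 (23.5%, exact 95% interval 20.3 to 27.0), above the 15.2% within a chromosome, and batch 2 46 of 416 (11.1%, 8.21 to 14.5), below 15.8%. In batch 1, 105 were called in both populations, 37 in fetal cells only and 12 in adult cells only, where all contacts between chromosomes gave 57.2%, 33% and 9.79%. In batch 2 these were 33, 12 and 1, where all gave 66.8%, 21.6% and 11.5%. Their counts had medians of 28 fetal and 18.5 adult in batch 1, and 42 and 39 in batch 2.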

How the results depend on the processing

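The shares, medians and counts above came to 20 results, which were recomputed under 72 alternatives, and 40 stayed within their own counting interval or, for counts, within 1.5 times. With the score limit raised by 1, open unmarked bins were 16.8% and 17.1% of contacts in batches 1 and 2, the share called in both was 39.6% in batch 2, median distances were 165 and 97.2 kb, and the fetal share in batch 1 reversed to 48.0%. Merged sites gave 33.7% and 45.6% called in both and, in batch 2, a fetal share of 54.7%. Without bins that had a marked neighbour, 27.1% and 37.6% were called in both, median distances were 180.1 and 104 kb, and batch 2's fetal share was 54.8%. Beyond 60 kb the fetal shares were 53.0% and 65.1%, batch 2's distance difference 15.0 kb and its median log2 ratio -0.074. Without scaling the median ratios reversed to 0.13 and 0.19, and scaling by summed counts gave -0.0053 in batch 2. Past 2-fold were 673 and 502 contacts with a pseudocount of 5, against 2137 and 889, and 371 of batch 1 with at least 20 counts. A marked bin lay within 2 kb of 18.7% and 19.7%, within 10 kb of 51.5% and 53.5%, and, among bins of the same promoter, within 5 kb of 23.6% and 27.1%. Without contacts of at least 1000 counts, an alternative chosen after seeing the data, the fetal count shares were 14.9% and 15.6%. The cause of these shifts was not tested, beyond the fewer contacts and wider windows that the alternatives themselves set. No paired analysis was possible because the deposited values hold no column per replicate, and no replicate could be left out. Counts of about 9 per contact in batch 1 limit any statement on a single contact.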
